A study of Mus musculus with 8 samples.

Results

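The genes described here encode the enzymes that write and erase methyl groups on histone lysines and on DNA. They were chosen by name, by a rule that uses no measured value, but earlier results of these data were known then. A gene was taken when the deposited table listed it as protein-coding and its symbol belonged to the Kdm1 to Kdm8, Kmt2 to Kmt5, Setd, Tet1 to Tet3, Dnmt1, Dnmt3 or Ezh1 and Ezh2 families, with 3 symbols of these families left out. This gave 41 genes of the 55450 in the table. Their mRNA was counted by 3′ RNA sequencing in 8 libraries of myeloid cells sorted from brain tumors of wild-type mice. The tumors were isogenic GL261, a mouse glioma line, grown orthotopically in the brain, and no library came from a brain without a tumor. Microglia, the resident macrophages of the brain (3 libraries), were F4/80+ CD11b+ CD45lo cells with low or no CD49d. Bone marrow-derived macrophages (BMDM, 5 libraries) were F4/80+ CD11b+ CD45+ cells with high CD49d, and both gates were Ly6G- with low or no Ly6C. The ages of the mice are not in the labels. Whether the libraries came from separate mice is not given either, so every p-value measures the spread between these libraries, which may in part be technical.

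Methylation of histone lysines is read according to its position. Methylation of H3K4 marks promoters and enhancers, H3K36 methylation lies over transcribed genes, and methylation of H3K9 and H3K27 is linked to silencing. Methyltransferases with a SET domain use S-adenosylmethionine to add the groups. LSD enzymes use flavin, and JmjC enzymes use oxygen, iron and 2-oxoglutarate, to remove them. On DNA, Dnmt enzymes methylate cytosine and Tet dioxygenases oxidize the methylated base. In macrophages these enzymes are studied for their part in setting and resetting enhancers when monocytes settle in a tissue or meet an inflammatory signal.

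Each library held between 5890406 and 16659154 counts. The 41 genes together took 0.135% to 0.248% of them, and all 41 had at least 1 count in some library. Of the 41, 37 passed the filter on low counts and were tested, among 16467 genes in all. Levels below are CPM, read counts brought to a common library size with TMM factors, and fold changes are log2, BMDM minus microglia, with a standard error (SE). CPM levels are compared between libraries for 1 gene. Counts of different genes are set side by side only in ratios within a library and for genes with overlapping exons. The sort was described with marker genes from lists chosen with earlier results of these data known, so this is no independent check. Of 10 microglia markers, 7 had less mRNA in BMDM (edgeR, adjusted p under 0.05), with summed levels of 2668 to 7961 CPM in microglia and 795 to 1830 CPM in BMDM. Of 10 markers of monocyte-derived cells, 9 were higher in BMDM, with sums of 110.5 to 146.5 CPM in microglia and 1022 to 2056 CPM in BMDM. Markers of some other cells also moved with the groups, while the sums for B cells, dendritic cells, neurons and oligodendrocytes overlapped. Sums of 5 neutrophil markers were 0.779 to 8.73 CPM in microglia and 25.1 to 88.0 CPM in BMDM. Sums of 6 T and NK cell markers were 2.00 to 5.26 CPM and 11.5 to 64.0 CPM, and sums of 5 astrocyte and tumor markers were 170 to 212 CPM and 26.1 to 74.2 CPM. Sums of 3 endothelial markers were 19.4 to 26.0 CPM and 30.1 to 46.3 CPM. Their part in the results below was not tested. In sorted bulk RNA, fewer cells of a type and less RNA per cell cannot be told apart.

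BMDM 4 and BMDM 5 stood apart from BMDM 1 to 3. The ribosomal RNA-like gene model Gm42418 held 14.8% to 19.8% of all counts for BMDM 1 to 3, but 41.2% for BMDM 4 and 48.9% for BMDM 5. In microglia it took 34.0% to 47.05%. At a common depth of 4151079 counts, 12965 genes were detected in BMDM 4 and 14102 in BMDM 5, against 19474 to 21186 in BMDM 1 to 3 and 17030 to 21602 in microglia. Results are given for all 8 libraries, for BMDM 1 to 3 alone and, where it bears on them, for BMDM 4 and 5 alone. Each set of BMDM libraries is compared with the 3 microglia libraries. These comparisons share their microglia libraries, so they are not independent of each other. The fit of BMDM 1 to 3 leaves out BMDM 4 and 5, which stood apart, and its p-values do not account for that choice.

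Over all 8 libraries, none of the 37 tested genes passed the threshold in either direction by edgeR (quasi-likelihood F test, p adjusted over all genes by Benjamini and Hochberg). Among all genes tested, 1.11% were called higher and 0.814% lower in BMDM, so a set of this size would hold fewer than 1 call at that rate. DESeq2 called none of 39 in either direction, where 3.47% of all genes it adjusted were called higher and 1.97% lower. At an unadjusted p under 0.05, edgeR gave 0 genes higher (6.49% of all genes) and 4 lower, which were Dnmt3a, Kdm2b, Kdm3a and Tet2 (10.8% of the set, 7.27% of all genes). The groups did not overlap for 5 genes lower in BMDM (Dnmt1, Dnmt3a, Kdm3a, Kmt5b and Setd5), which is 13.5% of the set against 8.66% of all genes. No gene was higher in every BMDM library than in every microglia library, where 4.32% of all genes were. The median log2 fold change of the 37 was -0.35, and 23 of 37 (62.2%) were negative. Over all genes the median was 0.08, and 46.9% were negative. With limma-voom the medians were -0.56 for the set and -0.23 for all genes.

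With BMDM 1 to 3 alone, 10 of the 37 genes (27%) were lower in BMDM and none was higher, while 8.11% of all genes were called lower and 6.35% higher. The 10 were the MLL family genes Kmt2a, Kmt2b, Kmt2c, Kmt2d and Kmt2e, the demethylase genes Kdm2a, Kdm3a and Kdm6b, and Dnmt3a and Tet2. The median over the 37 was -0.59, with 29 (78.4%) negative, against 0.09 over all genes with 47% negative. With BMDM 4 and 5 alone, a fit chosen after seeing the data, none of the 37 was called, and few genes of any kind were (0.0683% higher and 0.0372% lower). There the median of the set was -0.03, with 19 of 37 negative, and that of all genes was -0.20. The share of Gm42418 differed between microglia and BMDM 1 to 3 without overlap. In BMDM 4 it lay within the microglia range and in BMDM 5 just above it. Its part in the 10 calls was not tested.

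**Figure D1:**
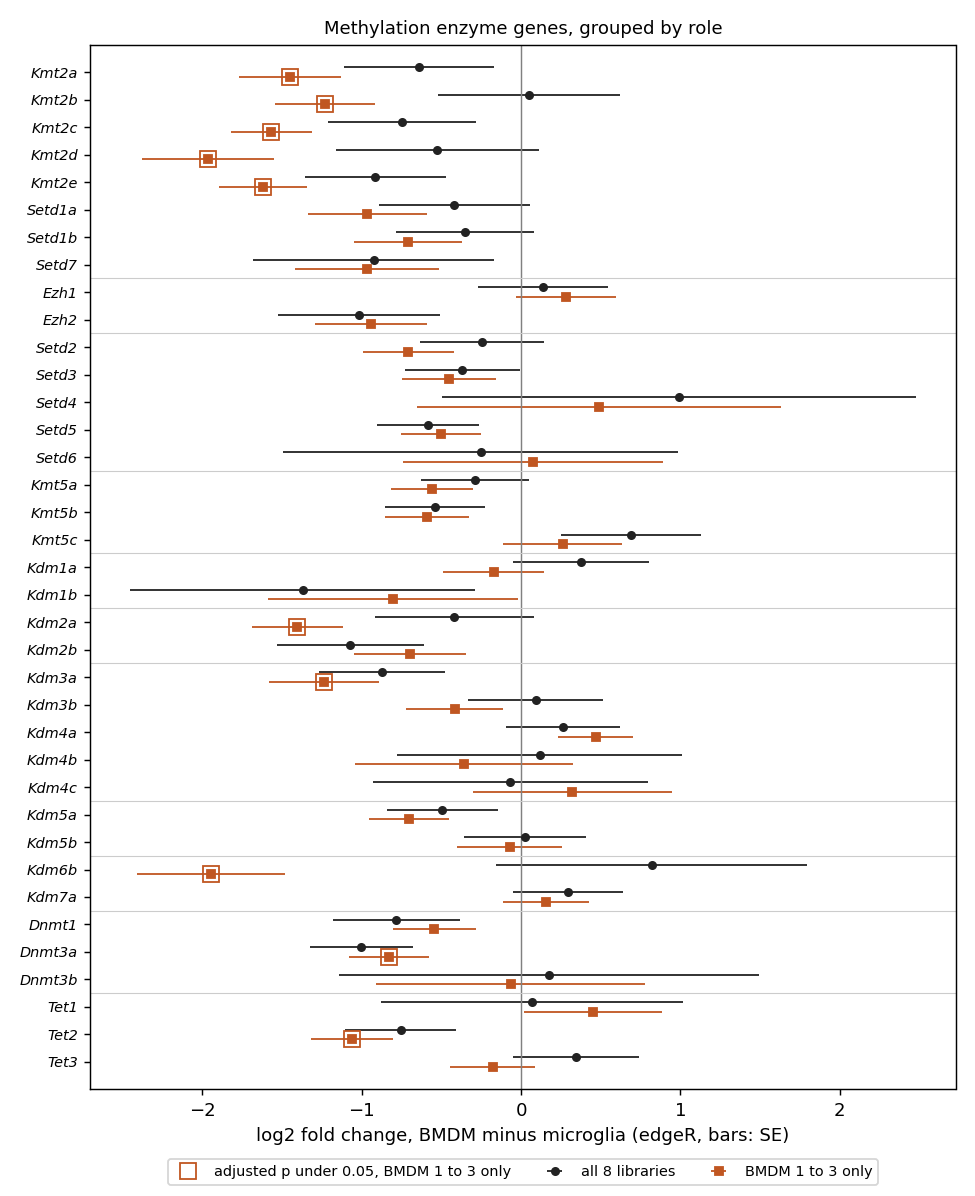
Log2 fold change (BMDM minus microglia, x axis) of the 37 tested methylation enzyme genes (y axis, grouped by role), with black circles for all 8 libraries, orange squares for BMDM 1 to 3 only, and bars for SE. Open squares mark the 10 genes with an adjusted p under 0.05 in BMDM 1 to 3 only, all of them to the left of 0, and no black circle passed that threshold.

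The genes of the H3K4 methyltransferase families gave 5 of the 10 calls, all in the MLL family (Kmt2a to Kmt2e). Kmt2a and Kmt2b encode the MLL enzymes that act at promoters, Kmt2c and Kmt2d encode the main monomethyltransferases of enhancers, and Kmt2e encodes a relative that binds methylated H3K4 but is not an active enzyme. Over all 8 libraries the 8 genes of this role had log2 fold changes from -0.92 to 0.05 with a median of -0.58, and none was called. With BMDM 1 to 3 alone they ran from -1.97 to -0.71 with a median of -1.34, and all 8 were negative.

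Kmt2c (chromosome 5, 25271798 to 25498783 in GRCm38) stood at 127, 129 and 118 CPM in microglia 1, 2 and 3, and at 49.3, 32.6, 43.4, 77.2 and 169 CPM in BMDM 1 to 5. BMDM 1 to 4 lay below every microglia library and BMDM 5 above them all. The log2 fold change was -0.75 ± 0.47 (SE; adjusted p = 0.561, edgeR) over all libraries and -1.57 ± 0.26 (adjusted p = 0.00349) with BMDM 1 to 3. Kmt2d (chromosome 15, 98831669 to 98871204) stood at 63.1, 101 and 122 CPM in microglia and at 20.8, 11.9, 39.5, 133 and 127 CPM in BMDM. Its BMDM libraries formed separate low and high groups, with BMDM 4 and 5 above the whole microglia range. Its log2 fold change was -0.52 ± 0.64 (adjusted p = 0.828, edgeR) over all libraries and -1.97 ± 0.41 (adjusted p = 0.0105) with BMDM 1 to 3.

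Kmt2a (chromosome 9, 44803355 to 44881296) showed the same split, with 112, 125 and 158 CPM in microglia and 55.4, 27.1, 59.9, 118 and 161 CPM in BMDM. Here BMDM 4 fell inside the microglia range and BMDM 5 just above it. The log2 difference was -1.45 ± 0.32 (adjusted p = 0.0128, edgeR) with BMDM 1 to 3 and -0.64 ± 0.47 (adjusted p = 0.652) over all libraries. Kmt2b stood at 21.6, 34.1 and 26.6 CPM in microglia, 11.3, 11.3 and 12.01 CPM in BMDM 1 to 3, and 57.6 and 49.8 CPM in BMDM 4 and 5. BMDM 1 to 3 lay below every microglia library, and BMDM 4 and 5 above every one. The direction depended on which were used: -1.23 ± 0.32 (adjusted p = 0.0251, edgeR) with BMDM 1 to 3 and 0.05 ± 0.57 (adjusted p = 0.988) over all.

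Kmt2e stood at 363, 291 and 245 CPM in microglia and at 99.5, 84.2, 107, 188 and 316 CPM in BMDM, so that only BMDM 5 reached the microglia range. Its log2 fold change was -0.92 ± 0.44 (adjusted p = 0.385, edgeR) over all libraries and -1.62 ± 0.27 (adjusted p = 0.00406) with BMDM 1 to 3. When BMDM 5 alone was left out, Kmt2c and Kmt2e were the only 2 of the 37 genes called, both lower in BMDM. In that fit, 602 of all 15864 genes tested were called lower and 536 higher. Exons of Kmt2e overlap those of Srpk2 on the other strand, and the strand settings of the counting are not given in the sources used here, so its counts are less certain. Setd1a and Setd1b, which encode the SET1 enzymes behind most H3K4 trimethylation, and Setd7, a monomethyltransferase that also acts on proteins other than histones, were not called in either fit. Setd1b ranged from 38.0 to 101 CPM in microglia and from 35.8 to 96.5 CPM in BMDM, with BMDM 4 alone high among the BMDM libraries.

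**Figure D2:**
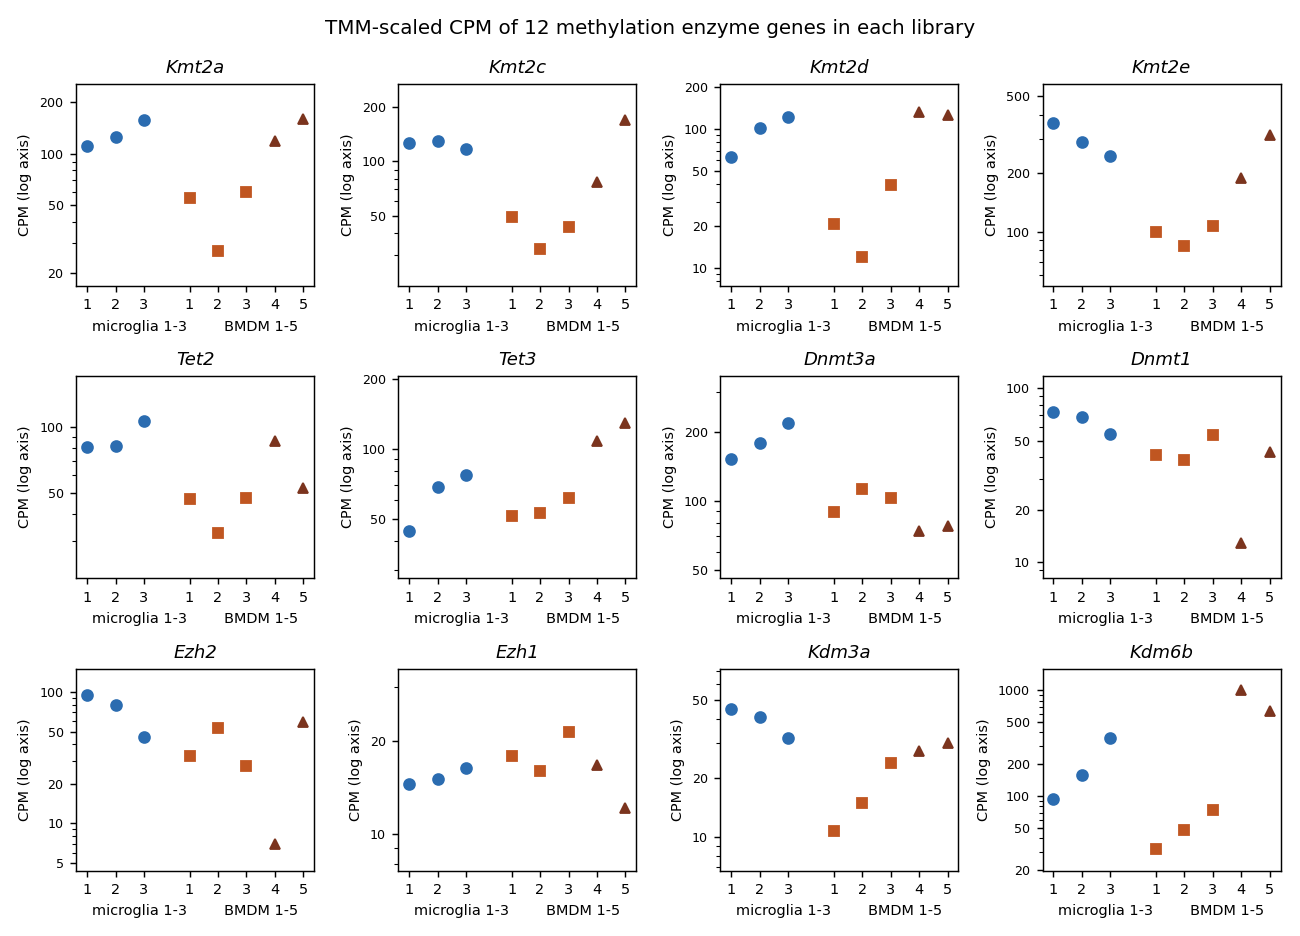
TMM-scaled CPM (y axes, logarithmic, scaled separately for each gene) of 12 methylation enzyme genes in microglia 1 to 3 (blue circles), BMDM 1 to 3 (orange squares) and BMDM 4 and 5 (brown triangles), 1 point per library. Kmt2a, Kmt2d and Kdm6b are low in BMDM 1 to 3 and back at or above the microglia levels in BMDM 4 and 5, whereas Dnmt3a is low in all 5 BMDM libraries.

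Promoters of Kmt2a and Kmt2d are shown because these genes were low together in BMDM 1 to 3, and as examples of the base composition of the set. They run from 250 bases before to 50 bases after a RefSeq start in GRCm38.p6, on the minus strand of chr9:44881240-44881539 and chr15:98871156-98871455, and overlap the first bases of each gene. Capitals mark the GC box GGGCGG, the core of sites for SP and KLF factors, or its reverse complement CCGCCC.
Kmt2a: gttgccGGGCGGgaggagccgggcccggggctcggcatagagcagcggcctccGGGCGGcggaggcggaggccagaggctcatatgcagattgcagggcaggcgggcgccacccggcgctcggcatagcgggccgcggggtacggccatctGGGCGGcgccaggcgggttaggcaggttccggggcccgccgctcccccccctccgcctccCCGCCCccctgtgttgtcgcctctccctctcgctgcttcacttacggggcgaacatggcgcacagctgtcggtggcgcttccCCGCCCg
Kmt2d: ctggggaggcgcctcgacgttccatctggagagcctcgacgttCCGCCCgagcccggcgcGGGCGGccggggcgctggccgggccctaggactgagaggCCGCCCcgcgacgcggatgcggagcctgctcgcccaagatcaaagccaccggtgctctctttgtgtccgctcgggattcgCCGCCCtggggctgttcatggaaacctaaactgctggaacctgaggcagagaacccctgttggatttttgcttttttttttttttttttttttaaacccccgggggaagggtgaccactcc
The Kmt2a promoter held 5 matches and 36 CpG dinucleotides, and the Kmt2d promoter 4 matches and 27 CpG dinucleotides. RefSeq promoters were found for 32 of the 41 genes, with 48 starts in all. The GC box occurred in 68.8% of these 48 and in 35.7% of all 32851 promoters in the table. The median promoter of the set had 26.5 CpG dinucleotides and 63.2% G and C, against 7 and 52.7% over all promoters. The other motifs searched on both strands were the ETS core CCGGAAG in 10.4% against 8.9%, the E2F site GGCGGGAA, which can overlap a GC box, in 2.1% against 2.2%, the AP-1 site TGANTCA in 6.2% against 7.8%, and the CRE TGACGTCA and YY1 site AAGATGGC in 0% against 1.8% and 2.7%. A match is a run of letters and not a bound site.

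Ezh1 and Ezh2 encode the alternative catalytic subunits of Polycomb repressive complex PRC2, which methylates H3K27. Ezh2 is linked to dividing cells and Ezh1 to resting ones. Ezh2 (chromosome 6, 47530139 to 47595341) stood at 94.0, 78.9 and 45.3 CPM in microglia and at 32.6, 53.1, 27.6, 7.003 and 59.6 CPM in BMDM. The ranges overlapped, with BMDM 4 far below the rest. The log2 fold change was -1.01 ± 0.51 (adjusted p = 0.409, edgeR) over all libraries and -0.94 ± 0.35 (adjusted p = 0.0969) with BMDM 1 to 3. Ezh1 stood at 14.5, 15.1 and 16.4 CPM in microglia and at 17.8, 16.0, 21.5, 16.7 and 12.2 CPM in BMDM, a log2 fold change of 0.14 ± 0.41 (adjusted p = 0.944, edgeR). Neither gene was called in either fit.

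The other PRC2 genes were read from a list. Of 10 core and accessory genes, edgeR called none over all libraries. At an unadjusted p under 0.05 there, edgeR gave 3 lower (7.27% of all genes) and 1 higher (6.49% of all genes). In BMDM 1 to 3, 4 were lower (8.11% of all genes) and none was higher (6.35% of all genes). These were the core genes Suz12 (-1.25 ± 0.25, adjusted p = 0.008455, edgeR) and Eed (-1.03 ± 0.31, adjusted p = 0.0462), the histone-binding subunit gene Rbbp7 (-0.99 ± 0.28, adjusted p = 0.0373) and the accessory gene Mtf2 (-1.50 ± 0.26, adjusted p = 0.00479). Suz12 stood at 65.2, 81.5 and 69.5 CPM in microglia and at 30.8, 25.7, 33.5, 25.8 and 56.5 CPM in BMDM, with no overlap between the groups. Eed stood at 41.9, 43.85 and 63.5 CPM in microglia. In BMDM 1 to 3 it stood at 16.2, 27.3 and 28.6 CPM, and in BMDM 4 and 5 at 69.4 and 49.1 CPM. Its log2 fold change over all libraries was -0.38 ± 0.43 (adjusted p = 0.809, edgeR). The summed level of 15 cell-cycle genes, given because Ezh2 and Dnmt1 are linked to division, was 446 to 511 CPM in microglia and 284 to 436 CPM in BMDM. None of the 15 was called in either fit, and their median log2 fold change was -0.58 over all libraries. For the proliferation gene Mki67 the log2 fold change was -0.73 ± 0.37 (adjusted p = 0.425, edgeR). The part of cell division in the values of Ezh2 and Dnmt1 was not tested.

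The other SET-domain and H4K20 methyltransferase genes gave no call. Setd2 encodes the H3K36 methyltransferase that travels with RNA polymerase, Setd3 an actin histidine methyltransferase, and Setd6 an enzyme that methylates the NF-kB subunit RelA. Over all 8 libraries the 5 genes Setd2 to Setd6 had log2 fold changes from -0.58 to 0.99. Setd5 stood at 66.7, 72.6 and 81.9 CPM in microglia and at 47.0, 43.5, 63.8, 57.3 and 34.4 CPM in BMDM. Its groups did not overlap, although the log2 fold change of -0.58 ± 0.32 did not pass the test (adjusted p = 0.473, edgeR). Setd4 had the largest positive log2 fold change of the 37, 0.99 ± 1.49 (adjusted p = 0.865, edgeR), and rested on few counts. It stood at 2.16, 3.12 and 1.56 CPM in microglia and at 2.80, 6.65, 0.114, 13.2 and 0 CPM in BMDM. The BMDM values thus ran from 0 to above every microglia library, and the SE exceeded the estimate.

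Among the H4K20 enzymes, Kmt5a sets the first methyl group and Kmt5b and Kmt5c add the second and the third. Kmt5b stood at 60.5, 55.1 and 92.2 CPM in microglia and at 47.7, 44.1, 44.3, 53.2 and 49.1 CPM in BMDM. All BMDM libraries lay below all microglia libraries by a narrow gap, and the log2 fold change was -0.54 ± 0.31 (adjusted p = 0.507, edgeR). Kmt5c stood at 13.1, 21.6 and 34.4 CPM in microglia and at 32.5, 19.6, 29.3, 50.9 and 53.3 CPM in BMDM. It had the third largest positive value, 0.69 ± 0.44 (adjusted p = 0.574, edgeR), and its ranges overlapped. Kmt5a ranged from 48.1 to 66.8 CPM in microglia and from 37.1 to 72.8 CPM in BMDM.

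Of the JmjC demethylase genes, Kdm2a, Kdm3a and Kdm6b were called with BMDM 1 to 3. Kdm6b (chromosome 11, 69398508 to 69413675) encodes an H3K27 demethylase known in macrophages as a gene induced by inflammatory stimuli such as lipopolysaccharide. It stood at 94.5, 157 and 358 CPM in microglia, at 31.7, 48.1 and 74.7 CPM in BMDM 1 to 3, and at 1001 and 636 CPM in BMDM 4 and 5. BMDM 1 to 3 lay below every microglia library, and BMDM 4 and 5 above every one. The log2 fold change was -1.95 ± 0.46 (adjusted p = 0.0182, edgeR) with BMDM 1 to 3 and 2.00 ± 0.58 (adjusted p = 0.195) with BMDM 4 and 5, so the 2 sets of BMDM libraries went opposite ways. Over all libraries it was 0.82 ± 0.98 (adjusted p = 0.823). In microglia, too, the library with the highest Kdm6b level, microglia 3, had the largest share of Gm42418 (47.05%) and the fewest genes detected (17030). The relation of Kdm6b to these library measures was not tested.

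Kdm2a and Kdm2b encode H3K36 demethylases that bind unmethylated CpG, and Kdm2b also brings a Polycomb complex to CpG islands. Kdm2a stood at 94.6, 113 and 168 CPM in microglia, 44.9, 38.3 and 56.4 CPM in BMDM 1 to 3, and 145 and 183 CPM in BMDM 4 and 5. It followed the split of the Kmt2 genes, with -1.41 ± 0.28 (adjusted p = 0.00884, edgeR) for BMDM 1 to 3 and -0.42 ± 0.50 (adjusted p = 0.824) over all. Kdm2b did not. It stood at 35.1, 26.95 and 71.4 CPM in microglia and at 26.2, 24.8, 29.9, 17.7 and 7.19 CPM in BMDM, where BMDM 4 and 5 were the lowest of the 8 libraries. Its log2 fold change was -1.07 ± 0.46 (unadjusted p = 0.0352, adjusted p = 0.312, edgeR) over all libraries and -0.70 ± 0.35 (adjusted p = 0.213) with BMDM 1 to 3. Its exons overlap those of Rnf34 on the other strand, which limits its counts in the same way as for Kmt2e.

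Kdm3a (chromosome 6, 71588972 to 71632990) encodes an H3K9 demethylase that is a known target of hypoxia signaling. It stood at 44.95, 40.8 and 31.9 CPM in microglia and at 10.8, 14.9, 23.9, 27.5 and 30.0 CPM in BMDM. The groups did not overlap, although BMDM 5 came close to microglia 3. The log2 fold change was -0.87 ± 0.40 (unadjusted p = 0.0435, adjusted p = 0.339, edgeR) over all libraries and -1.24 ± 0.35 (adjusted p = 0.0355) with BMDM 1 to 3. The other tested H3K9 demethylase genes, Kdm3b, Kdm4a, Kdm4b and Kdm4c, were not called in either fit. Jmjd1c, a close relative of Kdm3a and Kdm3b, falls outside the naming rule and was lower in BMDM in both fits: -1.92 ± 0.44 (adjusted p = 0.0379, edgeR) over all libraries and -2.53 ± 0.31 (adjusted p = 0.00108) with BMDM 1 to 3. It stood at 382, 510 and 739 CPM in microglia and at 84.6, 90.1, 104, 160 and 281 CPM in BMDM, and the groups did not overlap. It was the only 1 of 10 other JmjC genes called in either fit. Of all genes, 0.814% were called lower over all libraries and 8.11% with BMDM 1 to 3.

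The H3K4 demethylase genes Kdm5a and Kdm5b, Kdm7a, which acts on H3K9 and H3K27, and the LSD genes were not called. Kdm5a ranged from 93.5 to 112 CPM in microglia and from 52.8 to 121 CPM in BMDM, and Kdm7a from 66.6 to 112 CPM and from 87.6 to 158 CPM. Kdm1a encodes LSD1, the flavin-dependent enzyme that works with the CoREST proteins. It stood at 25.1, 30.5 and 28.1 CPM in microglia and at 22.2, 17.2, 34.1, 48.1 and 59.4 CPM in BMDM, with BMDM 4 and 5 highest. The log2 estimate was 0.38 ± 0.43 (adjusted p = 0.811, edgeR). Kdm1b, the other LSD gene, had the largest negative value of the set, -1.37 ± 1.08 (adjusted p = 0.687, edgeR), on levels of 2.79, 10.6 and 6.45 CPM in microglia and 5.46, 4.80, 0.915, 0.955 and 0.553 CPM in BMDM. BMDM 3 to 5 lay below every microglia library, and exons of the more abundant Dek overlap this gene on the other strand. None of the 5 tested LSD1 partners was called in either fit.

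Dnmt1 copies methylation to new DNA strands, and Dnmt3a and Dnmt3b set it de novo. Dnmt3a (chromosome 12, 3806007 to 3914443) had the smallest p of the 37 genes over all libraries. It stood at 152, 179 and 220 CPM in microglia (mean 184 ± 33.9, SD, n = 3) and at 89.5, 113, 104, 73.5 and 78.1 CPM in BMDM (mean 91.6 ± 16.7, SD, n = 5). All 5 BMDM libraries lay below all 3 microglia libraries, and unlike the Kmt2 genes, BMDM 4 and 5 were lower than BMDM 1 to 3. The log2 fold change was -1.003 ± 0.32 (unadjusted p = 0.00718, adjusted p = 0.148, edgeR) over all libraries, -0.83 ± 0.25 (adjusted p = 0.0497) with BMDM 1 to 3, and -1.29 ± 0.34 (adjusted p = 0.165) with BMDM 4 and 5. The first and last of these did not pass the threshold, and the middle value passed it narrowly.

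Dnmt1 (chromosome 9, 20907209 to 20959888) stood at 73.6, 68.1 and 54.6 CPM in microglia and at 41.1, 38.9, 53.8, 12.9 and 43.3 CPM in BMDM. The groups did not overlap, but BMDM 3 came within 1 CPM of microglia 3, and BMDM 4 was the lowest by far. Its log2 fold change was -0.78 ± 0.40 (adjusted p = 0.420, edgeR) over all libraries and -0.54 ± 0.26 (adjusted p = 0.187) with BMDM 1 to 3. Uhrf1, which brings Dnmt1 to newly copied DNA, stood at 9.57, 8.85 and 18.1 CPM in microglia and at 2.13, 2.59, 1.6015, 1.91 and 0 CPM in BMDM. Its log2 fold change was -2.88 ± 1.01 (adjusted p = 0.190, edgeR) over all libraries and -2.50 ± 0.56 (adjusted p = 0.0139) with BMDM 1 to 3. Dnmt3b ranged from 2.00 to 4.68 CPM in microglia and from 0 to 8.43 CPM in BMDM.

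Among 12 readers and partners of DNA methylation, edgeR called none over all libraries, while DESeq2 called Uhrf1 lower (-2.76, adjusted p = 0.0304). DESeq2 called 1.97% of all genes it adjusted lower. For BMDM 1 to 3, edgeR gave 3 lower (8.11% of all genes) and 1 higher (6.35% of all genes). Besides Uhrf1, the lower ones were Ogt (-1.73 ± 0.31, adjusted p = 0.00533, edgeR), which encodes the O-GlcNAc transferase that binds Tet proteins, and Zbtb38 (-1.58 ± 0.39, adjusted p = 0.0219), a zinc-finger reader. Mbd2, a methyl-CpG-binding protein gene, was higher (1.24 ± 0.34, adjusted p = 0.0340).

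Tet2 and Tet3 are the main Tet genes of myeloid cells, and loss of Tet2 is known from clonal expansion of blood cells. Tet2 (chromosome 3, 133463679 to 133545139) stood at 80.4, 81.2 and 106 CPM in microglia and at 46.7, 32.6, 47.2, 85.5 and 52.2 CPM in BMDM. Only BMDM 4 reached the microglia range. The log2 fold change was -0.76 ± 0.35 (unadjusted p = 0.0476, adjusted p = 0.355, edgeR) over all libraries and -1.06 ± 0.26 (adjusted p = 0.0197) with BMDM 1 to 3. Tet3 (chromosome 6, 83362373 to 83459084) stood at 44.3, 68.5 and 77.0 CPM in microglia and at 51.4, 52.7, 61.4, 108 and 129 CPM in BMDM. Its ranges overlapped, with BMDM 4 and 5 highest, and the log2 fold change was 0.35 ± 0.40 (adjusted p = 0.814, edgeR) over all libraries and -0.18 ± 0.27 (adjusted p = 0.691) with BMDM 1 to 3. Tet1 ranged from 5.43 to 11.1 CPM in microglia and from 0 to 12.2 CPM in BMDM. The value of 0 was in BMDM 4, where the limit that a count of 0 allows, 3 counts, equals 0.478 CPM for counting error only.

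The ratio of 2 genes within a library does not depend on how libraries are scaled, and 5 such ratios were compared. The log2 ratio of Tet2 to Tet3 counts was 0.86, 0.24 and 0.46 in microglia and -0.14, -0.69, -0.38, -0.33 and -1.30 in BMDM. It was positive in all 3 microglia libraries and negative in all 5 BMDM libraries, those with a high share of Gm42418 included. The difference of means was -1.09, and the two-sided exact permutation test over the 8 libraries gave p = 0.0179, the smallest it can give, and an adjusted p of 0.0893 over the 5 ratios. The adjusted value did not pass 0.05, and with a smallest p of 0.0179 a single ratio among 5 could not pass it. The promoters of this pair follow, with capitals as above. RefSeq places the Tet2 start within the gene at chr3:133544341-133544640 and the Tet3 start at chr6:83441629-83441928, inside the longer gene annotated by GENCODE, both on the minus strand.
Tet2: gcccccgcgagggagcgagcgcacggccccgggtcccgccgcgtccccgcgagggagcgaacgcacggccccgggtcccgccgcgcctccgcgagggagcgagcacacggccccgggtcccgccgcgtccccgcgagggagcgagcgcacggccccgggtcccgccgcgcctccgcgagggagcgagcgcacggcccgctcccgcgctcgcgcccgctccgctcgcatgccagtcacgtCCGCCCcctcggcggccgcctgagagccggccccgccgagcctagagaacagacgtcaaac
Tet3: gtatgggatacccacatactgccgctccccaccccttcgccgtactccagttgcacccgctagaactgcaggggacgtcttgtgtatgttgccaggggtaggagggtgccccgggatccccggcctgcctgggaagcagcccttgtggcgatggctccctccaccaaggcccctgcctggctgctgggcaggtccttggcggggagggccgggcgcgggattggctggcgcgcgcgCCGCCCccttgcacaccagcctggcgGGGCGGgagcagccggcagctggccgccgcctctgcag
The Tet2 promoter held 57 CpG dinucleotides, 81.3% G and C and 1 GC box, and the Tet3 promoter 22 CpG dinucleotides, 71.3% G and C and 2 GC boxes. None of the other 5 motifs occurred in either window.

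The other 4 ratios did not pass the exact permutation test. The log2 ratio of Ezh1 to Ezh2 was -2.69, -2.38 and -1.47 in microglia and -0.87, -1.73, -0.36, 1.25 and -2.29 in BMDM, a difference of 1.38 (exact permutation p = 0.161, adjusted p = 0.402). BMDM 4 was the only library with more Ezh1 than Ezh2 counts. Kdm6b encodes an eraser and Ezh2 a writer of H3K27 methylation. The log2 ratio of Kdm6b to Ezh2 ran from 0.01 to 2.98 in microglia and from -0.14 to 7.14 in BMDM (difference 1.04, exact permutation p = 0.661, adjusted p = 0.826). In this ratio BMDM 4 and 5 lay above the rest. That of Dnmt3a to Dnmt1 ran from 1.05 to 2.01 and from 0.85 to 2.50 (difference -0.09, exact permutation p = 0.893, adjusted p = 0.893). That of Kmt5b to Kmt5a ran from -0.28 to 0.49 and from -0.57 to 0.36 (difference -0.18, exact permutation p = 0.554, adjusted p = 0.826). With these overlaps and spreads, differences of the sizes seen could not be told from 0.

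**Figure D3:**
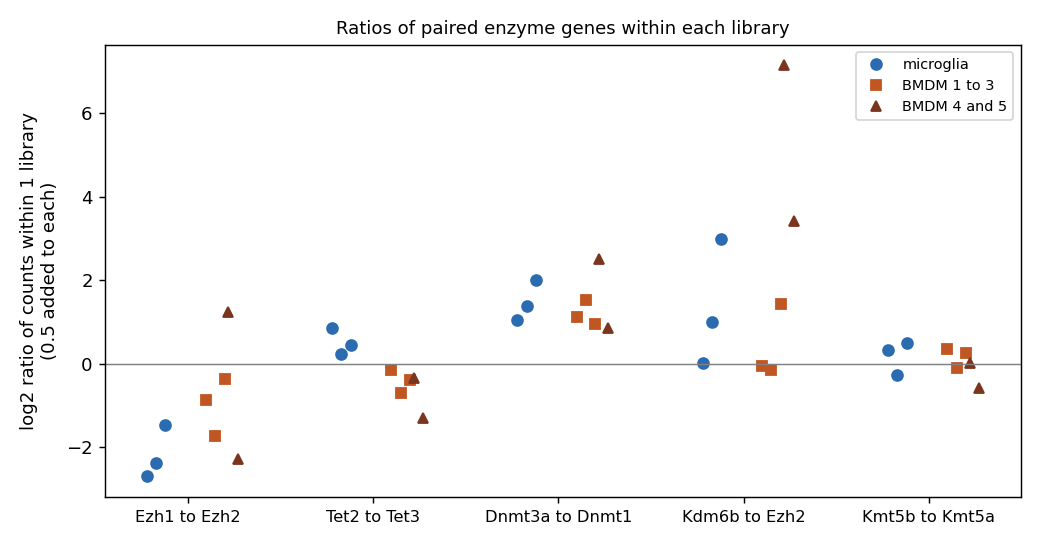
Log2 ratio of the counts of 2 genes within each library (y axis, 0.5 added to each count) for 5 pairs (x axis), with blue circles for microglia, orange squares for BMDM 1 to 3 and brown triangles for BMDM 4 and 5. The ratio of Tet2 to Tet3 lies above 0 in all 3 microglia libraries and below 0 in all 5 BMDM libraries, and the other 4 pairs overlap between the groups.

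Within BMDM, the set was split between the libraries as described for Kmt2a and Kdm6b. In 17 of the 37 tested genes (45.9%), BMDM 4 and BMDM 5 were both above all of BMDM 1 to 3, which held for 13.7% of all 16467 genes. They were both below BMDM 1 to 3 in 4 of the 37 (10.8%), Dnmt3a, Kdm2b, Kdm4c and Tet1, against 26.3% of all genes. The 17 included all 5 tested Kmt2 genes, Tet2 and Tet3. These counts describe libraries of 1 group that were set apart after their values were seen, and were not tested. At a common depth, fewer genes were detected in BMDM 4 (12965) and BMDM 5 (14102) than in BMDM 1 to 3 (19474 to 21186). The part of this in the shares of all genes was not tested. As a share of all counts, the 41 genes took 0.135% to 0.172% in BMDM 1 to 3 and 0.220% to 0.248% in the other 5 libraries, microglia included.

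The genes of the set are long. Their median summed exon length was 10057 bases in the 37 tested, against 4680 bases for all protein-coding genes tested with BMDM 1 to 3, and 18 of the 37 were in the longest 10% of those genes. Of these 18, 7 were lower with BMDM 1 to 3, against 3 of the other 19. In the longest 10% as a whole, 21.5% of 1263 genes were lower in that comparison, with a median log2 fold change of -0.39. Across the 37 genes, Spearman's rho between length and log2 fold change was -0.44 with BMDM 1 to 3 and -0.37 over all libraries, and across all protein-coding genes it was -0.20 and -0.18. Genes share their libraries and are not independent replicates, so these are descriptions, and the part of length in the calls was not tested. The called genes ran from 6954 bases (Kdm6b) to 20291 bases (Kmt2c).

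**Figure D4:**
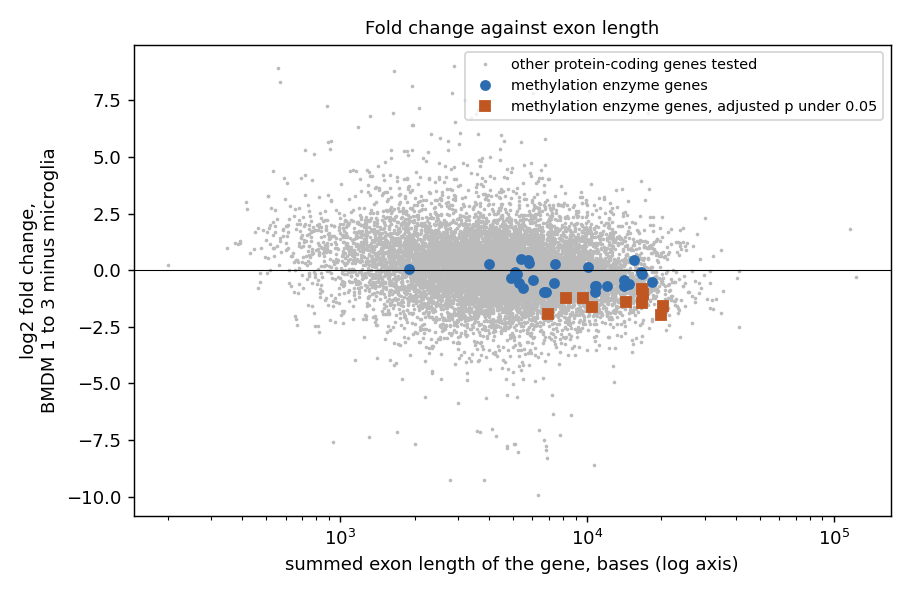
Log2 fold change of BMDM 1 to 3 minus microglia (y axis) against summed exon length in bases (x axis, logarithmic), with grey points for the other protein-coding genes tested, blue circles for methylation enzyme genes that were not called and orange squares for the 10 called ones. The orange squares lie between 6954 and 20291 bases, to the right of most grey points, and below 0.

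The remaining lists of related genes are read against the same shares of all genes, 8.11% lower and 6.35% higher with BMDM 1 to 3. Of the 11 tested subunits of the COMPASS complexes that carry Kmt2 and Setd1 enzymes, neither edgeR nor DESeq2 called any over all libraries, and 1 was lower with BMDM 1 to 3, the chromatin-tethering gene Psip1 (-1.18 ± 0.32, adjusted p = 0.0322, edgeR). Of 15 tested genes for other lysine methyltransferases, neither tool called any over all libraries. With BMDM 1 to 3, Setdb1, an H3K9 methyltransferase gene, was lower (-1.54 ± 0.46, adjusted p = 0.0476, edgeR) and Smyd5 was higher (1.59 ± 0.39, adjusted p = 0.0204). None of 8 arginine methyltransferase genes was called in either fit. Of 16 tested genes that supply or use up the cofactors, edgeR called none over all libraries, while DESeq2 called Sdha higher (1.04, adjusted p = 0.0266). DESeq2 called 3.47% of all genes it adjusted higher. With BMDM 1 to 3, edgeR gave 2 lower and 2 higher. Mat2a, which makes S-adenosylmethionine, was lower (-1.15 ± 0.33, adjusted p = 0.0373, edgeR), as was Idh3a of the citric acid cycle (-2.10 ± 0.40, adjusted p = 0.00690). The succinate dehydrogenase genes Sdha (0.97 ± 0.24, adjusted p = 0.0215, edgeR) and Sdhb (1.48 ± 0.27, adjusted p = 0.00569) were higher. For Idh1, which makes 2-oxoglutarate in the cytosol, the log2 fold change was -0.04 ± 0.34 (adjusted p = 0.947, edgeR).

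The other 4 genes of the set did not pass the filter on low counts and were not tested by edgeR. Dnmt3l, a cofactor of the de novo enzymes, had counts of 0, 1 and 0 in microglia and 0, 8, 0, 28 and 0 in BMDM. Kdm8 had counts of 1, 7 and 5 in microglia and 8, 0, 0, 15 and 0 in BMDM. All 22 counts of Kdm4d were in BMDM 4, and all 4 counts of Dnmt3c, a rodent gene of the male germ line, were in BMDM 3. DESeq2, run without that filter, called neither Dnmt3l (log2 fold change 5.2, adjusted p = 0.328) nor Kdm8 (0.78, adjusted p = 0.917). It gave Kdm4d and Dnmt3c no adjusted p. Thus no difference between the groups was called for these 4 at this depth.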

How the data were processed

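Total RNA of sorted cells was made into QuantSeq 3′ FWD libraries and read as single 75 base reads, per the labels' protocols. The authors deposited 1 table of raw counts per gene. Cutadapt, STAR, featureCounts and the mm10 build are named in the submitters' processing notes, without versions or settings. Settings for strand and for multiply mapped reads are not given in the sources used here. Exons of 17 of the 41 genes overlap those of another gene in GENCODE M21, for 15 of them on the other strand alone.

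Counts were tested with edgeR 4.0.16 (limma 3.58.1, R 4.3.3): filterByExpr (minimum count 10, minimum total 15), TMM factors, robust quasi-likelihood fits on all genes and Benjamini-Hochberg adjustment over all genes tested, with a threshold of 0.05. SE came from the F statistic. Ratios used counts plus 0.5. Alternatives were DESeq2 1.42.0, limma-voom, other scalings and filters, the replicate block, BMDM 1 to 3 alone and each library left out. BMDM 4 and 5 alone was added after seeing the data. The scripts were tested on simulated data. No 2 libraries of 1 group were alike within sampling noise. The members and lists were chosen with earlier results of these data known. All members may be named. Per-library values were planned for called genes, the 3 largest positive and negative fold changes and 7 preset genes. Those of Setd5, Kmt5b, Kdm1a and the related genes Suz12, Eed, Uhrf1 and Jmjd1c were added after seeing the data.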

Additional observations from a re-analysis of the deposited data

Results flagged for a closer look

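The 5 BMDM libraries were tested for 1 value far from the others (Dixon's criterion) in 42 measures. These were 37 genes, on log2 of CPM plus 1, and the 5 log2 ratios. Of the 42, 5 were flagged, and chance flags about 1 in 20. The measures share libraries, and the ratios share genes with the rest, so they are not independent. Of these 5 values, 4 were in BMDM 4. Setd1b stood at 96.5 CPM in BMDM 4, above the other BMDM libraries. Setd6 stood at 0.159 CPM there, and Dnmt1 at 12.9 CPM, both below the others. Tet1 stood at 0 CPM in BMDM 4, where 3 counts equal 0.478 CPM. Kdm4a stood at 23.9 CPM in BMDM 5, below the other BMDM libraries.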

How the results depend on the processing

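Over all 8 libraries no member was called with DESeq2, limma-voom, RLE factors, library totals alone, Gm42418 and mitochondrial rRNA left out, no filter or the stricter filter (10 CPM in 3 libraries). With BMDM 1 to 3 alone, 10 were lower and the median was -0.59, and with BMDM 4 and 5 alone (added after seeing the data) none was called and the median was -0.034. Leaving out 1 library gave 0 lower, except 2 (Kmt2c, Kmt2e) without BMDM 5, where 602 of all 15864 genes tested were lower. Library totals alone moved the median of all genes from 0.08 to 0.20, and that of the members from -0.35 to -0.21. Limma-voom moved them to -0.23 and -0.56. With the replicate block, 11 members were lower (the 10 and Ezh2), where 10.9% of all genes were lower and 9.13% higher, and calls over all genes went from 2340 to 3244. Deviations of same-numbered libraries correlated at 0.137, 0.0903 and 0.238. Each library correlated best with its own number, a hint from the data, but the samples share only a number.

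Signs differed from the fit of all libraries in 10 of 37 members with BMDM 1 to 3 alone, 11 with the replicate block, 10 with BMDM 4 and 5 alone, 9 with limma-voom, 2 with library totals alone and up to 7 with 1 library left out. Values follow for members whose fold changes the report prints, with Dnmt3b and Tet1 added. For BMDM 1 to 3 alone, and with the replicate block, Kdm6b was -1.95 and -1.84, Kmt2b -1.23 and -1.21, Tet3 -0.18 and -0.15, and Kdm1a -0.17 and -0.22. Dnmt3b, 0.17 over all libraries, was -0.065 and -0.027 in the same settings. Setd4 was -0.30 with the block. With limma-voom Kdm6b was -0.23, Kmt2b -0.38, Setd4 -0.87, Dnmt3b -0.89 and Tet1 -0.84. With library totals alone Kmt2b was -0.008. With BMDM 4 and 5 alone Kdm2a was 0.38, Kmt2a 0.076, Kmt2d 0.43, Ezh1 -0.10, Kdm4a -0.094, Setd2 0.25 and Tet1 -0.80. Leaving out 1 library gave -0.10 (without BMDM 4) to 1.39 (without microglia 3) for Kdm6b and -0.43 (without BMDM 4) to 0.26 (without BMDM 1) for Kmt2b. The log2 ratio of Dnmt3a to Dnmt1 differed by 0.20 with BMDM 4 and 5 alone, and by -0.37 to 0.17 over libraries left out. That of Kdm6b to Ezh2 differed by -0.91 with BMDM 1 to 3 alone, and by -0.16 to 1.86. The cause was not tested. The other 3 ratios kept their sign in all settings run, Tet2 to Tet3 from -0.91 to -1.34, Ezh1 to Ezh2 from 0.87 to 1.75 and Kmt5b to Kmt5a from -0.008 to -0.45. Low counts limit Setd4, Kdm1b, Setd6 and Dnmt3b most, whose SE was above 1.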
